A study of Mus musculus with 9 samples.

Results

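The genes described here encode the receptors through which retinal neurons read glutamate, GABA and glycine. They were chosen by a rule on symbols, which used no values but was set with earlier results of these data known. They comprise the ionotropic glutamate receptor genes (Gria, Grik, Grin and Grid), the metabotropic ones (Grm), the GABA-A and GABA-B receptor genes (Gabra, Gabrb, Gabrg, Gabrd, Gabrr and Gabbr) and the glycine receptor genes (Glra and Glrb). Grm6, the glutamate receptor gene of ON bipolar cells, was left out by that rule. The table of 55414 genes held 48 such genes. Of these, 47 were among the 17272 genes that passed a filter on low counts, and Gabra6, whose subunit is typical of cerebellar granule cells, had 0 counts in all 9 libraries. Retinas of Balb/c mice, an albino strain, were sequenced as 3 libraries from light damage with A74, 3 from light damage alone and 3 from control. The labels give neither age, sex, dose of A74, vehicle nor duration of light, and they do not spell out what A74 is. The series title names inhibition of P2RX7, an ATP-gated channel, in light-induced retinal degeneration. The labels do not tie each library to an animal of its own, and p-values then reflect only how far these libraries differ, which may be technical in part.

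Photoreceptors and bipolar cells release glutamate, while horizontal and amacrine cells use GABA and glycine as inhibitory transmitters. AMPA, kainate and NMDA receptors are cation channels assembled from several subunits that open on binding glutamate, and GABA-A and glycine receptors are chloride channels built in the same manner. Metabotropic glutamate receptors and GABA-B receptors act through G proteins, many of them on the terminals that release the transmitter. Most of these receptors sit on bipolar, horizontal, amacrine and ganglion cells, whereas light damage strikes the photoreceptors.

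Library totals ran from 14787972 to 18740434 counts. Libraries of a group were not alike. Y-linked transcripts had 4249 to 5832 counts in replicates 1 and 2 of light damage and of control and 0 counts in the other 5 libraries. Xist, which is made from the inactive X chromosome, had 17227 to 18172 counts in the 3 A74 libraries and 22253 in control replicate 3, against 1 to 7 elsewhere, so light damage replicate 3 had neither. Genes of anterior eye tissue summed to 138 to 275 CPM (counts per library size in the usual CPM unit, after TMM scaling) in A74 replicate 1 and in replicates 1 and 2 of light damage and of control, while the remaining 4 had 12.5 to 15.9 CPM. Light damage replicate 3 also was the closest of its group to control in rod transcripts. The median of 13 rod markers lay 0.81, 0.50 and 0.30 below the control mean on the log2 scale in light damage replicates 1, 2 and 3. Results that rest on this library are given with and without it.

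Levels within a family spread widely in CPM per kilobase of exon, the scale used for every level compared between genes. Orders on this scale depend on the exon lengths used. Among genes for alpha subunits of GABA-A receptors, Gabra3 averaged 13.4 CPM per kb over the 9 libraries, against 10.5 for Gabra2, 3.45 for Gabra4 and 0.301 for Gabra5, and no neighbours in that order overlapped over the libraries. Gabrb2 (5.12 CPM per kb) stood above Gabrb1 (0.939), and Gabrd (6.25), the subunit of extrasynaptic receptors, above Gabrg1 (2.57) and Gabrg3 (1.67), again without overlap. The rho subunits form slowly desensitising GABA receptors on bipolar cell terminals. Gabrr1 and Gabrr2, at 37.6 and 35.7 CPM per kb, overlapped, and both were above Gabrr3 at 5.88. Gabbr1, the GABA-binding subunit of the GABA-B receptor, was above its partner Gabbr2, at 29.6 and 12.3 CPM per kb.

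Among the kainate receptor genes, Grik1 (28.8 CPM per kb), whose subunit is found on OFF bipolar cells, was above Grik5 (19.6), which encodes a subunit that works only with others. Grik2 (2.36), Grik3 (1.93) and Grik4 (0.807) were lower. The AMPA receptor genes fell into overlapping pairs, Gria4 and Gria2 at 18.4 and 16.7 CPM per kb, and Gria3 and Gria1 at 8.73 and 8.12. Grin1, the subunit that every NMDA receptor needs, had 10.3 CPM per kb, and the 6 other NMDA receptor genes had 0.316 to 1.78. Grm8 led the metabotropic genes at 6.71 CPM per kb, followed by Grm7 and Grm5, which overlapped at 4.23 and 4.06. In CPM not divided by length, Grm5 (33.0) was above Grm8 (25.9), so their order turns on the exon lengths. Glrb, the beta subunit that anchors glycine receptors at synapses, had 23.7 CPM per kb, against 8.31 for Glra3, 6.44 for Glra2, 1.56 for Glra1 and 1.38 for Glra4, of which the last pair overlapped. Grid1, an orphan delta receptor gene, had 3.59 CPM per kb.

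**Figure D1:**
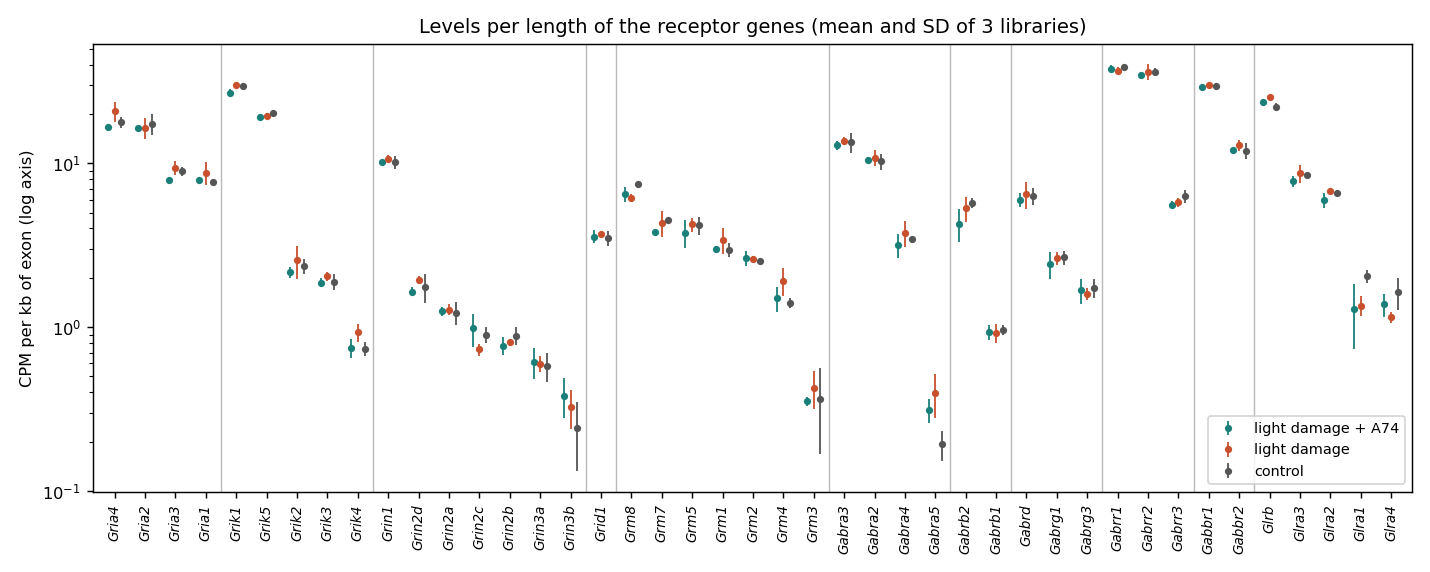
Level of 43 receptor genes that passed the filter, in CPM per kilobase of exon on a log axis, with points at the mean and bars at the SD of 3 libraries for light damage with A74, light damage and control, and grey lines between families. The 3 groups lie close together for most genes, and the order within a family, led for example by Grik1, Grin1 and Grm8, is far wider than the gap between groups.

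Light damage was first compared with control, which asks how injury to photoreceptors left the receptor genes. Of the receptor genes tested, 4 of 47 or 8.51% were called, among them Glrb and Gabra5, which rose, and Grm8, which fell, while 25.8% of all 17272 genes were called in the same edgeR quasi-likelihood test (4452 genes, at an adjusted p under 0.05, by Benjamini-Hochberg over the whole table). At an unadjusted p under 0.05 there were 8 receptor genes of 47, beside 37.4% of all genes. The median log2 fold change was 0.05 over the receptor genes and 0.01 over all genes, and these medians were -0.12 and -0.15 when libraries were scaled on inner neuron markers. Light damage and control libraries did not overlap for 9 receptor genes, 5 higher (Gabra5, Glrb and Grik4 among them) and 4 lower (Glra1, Glra4, Grin2c and Grm8), beside 40.6% of all genes (20.6% higher and 20.0% lower). In these bulk libraries, fewer cells of a type and less RNA per cell cannot be told apart.

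**Figure D2:**
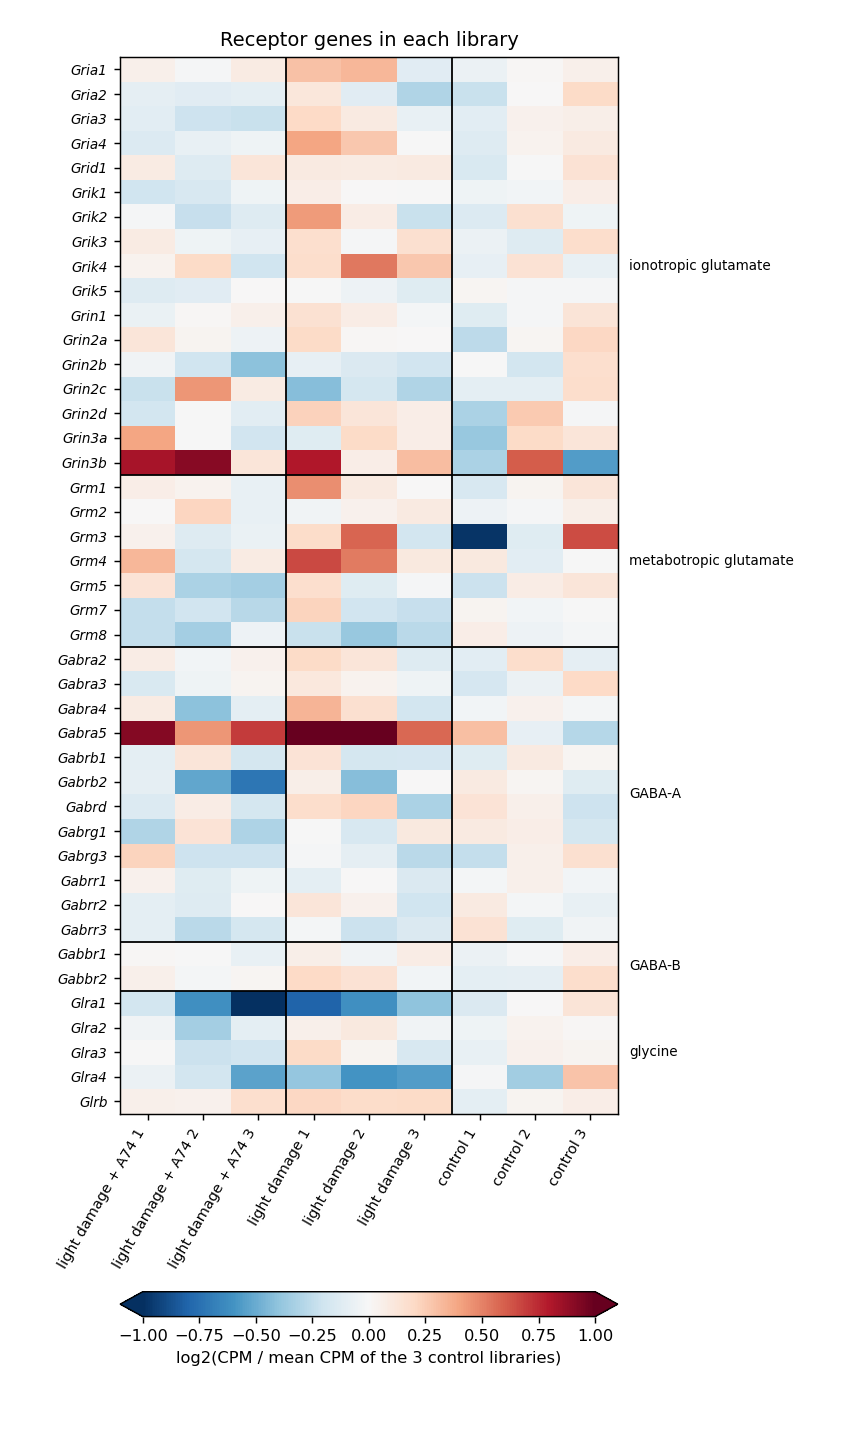
Log2 ratio of CPM to the mean of the 3 control libraries, with libraries as columns (light damage with A74, light damage, control) and 43 receptor genes as rows, grouped by transmitter and receptor type. Most cells are pale, Gabra5 is red in all 3 light damage libraries, and Glra1 and Glra4 are blue in them. The A74 libraries also lie above the control mean for Gabra5 and below it for Glra1 and Glra4.

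Glrb had 81.5, 80.2 and 80.6 CPM in light damage, against 65.8, 71.9 and 73.9 CPM in control. The light damage libraries were almost level with each other and above every control library. Its log2 fold change was 0.19 (SE 0.06, edgeR adjusted p = 0.0280), with a 95% interval of 0.06 to 0.33. The edgeR adjusted p was 0.143 without control replicate 1, 0.0519 without control replicate 2, 0.0586 without light damage replicate 1 and 0.0588 without light damage replicate 2, so none of those fits called it.

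Grm8 encodes a metabotropic receptor of group III, whose members lower transmitter release from the terminals they sit on. It had 24.7, 22.2 and 24.0 CPM in light damage, against 30.2, 28.0 and 28.5 CPM in control. Every light damage library was below every control library. The log2 fold change was -0.29 (SE 0.09, 95% interval -0.48 to -0.10, edgeR adjusted p = 0.0248). The call was lost without control replicate 1 (edgeR adjusted p = 0.103), control replicate 3 (0.0526) or light damage replicate 2 (0.125). Over 18 alternative fits its log2 fold change stayed between -0.45 and -0.24.

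Gabra5, the alpha-5 subunit of extrasynaptic GABA-A receptors, had the largest log2 fold change, 1.06 (SE 0.37, edgeR adjusted p = 0.0446), on few reads. It had 1.14, 1.56 and 0.853 CPM in light damage, against 0.706, 0.543 and 0.472 CPM in control, or 7 to 30 counts in any library. The groups did not overlap. DESeq2 did not call it (adjusted p = 0.128), nor did edgeR with replicate number as a block (adjusted p = 0.0537), and of the 9 fits that leave out 1 library only those without light damage replicate 3 or A74 replicate 1 called it (the others had edgeR adjusted p from 0.0523 to 0.206, the highest without light damage replicate 2).

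RefSeq, build GRCm38.p6, lists a start site for 32 of the 48 receptor genes and for 4 of the 6 called in any comparison, and the 250 bases before the start are shown for Glrb, which rose, for Grm8, which fell, and for Gria4, described below with A74. All are on the minus strand, written 5′ to 3′ up to the base before the start, at chr3:80913661-80913910, chr6:28135147-28135396 and chr9:4796235-4796484. Capitals mark the GC box GGGCGG, searched on both strands.
Glrb: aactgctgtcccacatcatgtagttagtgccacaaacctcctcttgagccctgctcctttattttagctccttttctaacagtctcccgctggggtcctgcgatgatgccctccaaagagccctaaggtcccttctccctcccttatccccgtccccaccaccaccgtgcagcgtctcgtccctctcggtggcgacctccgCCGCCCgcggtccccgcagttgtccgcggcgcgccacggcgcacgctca
Grm8: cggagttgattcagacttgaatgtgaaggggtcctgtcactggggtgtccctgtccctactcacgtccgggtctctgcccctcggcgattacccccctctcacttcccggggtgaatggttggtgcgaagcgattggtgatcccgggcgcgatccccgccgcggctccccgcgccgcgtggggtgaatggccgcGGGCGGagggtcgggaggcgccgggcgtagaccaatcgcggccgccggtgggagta
Gria4: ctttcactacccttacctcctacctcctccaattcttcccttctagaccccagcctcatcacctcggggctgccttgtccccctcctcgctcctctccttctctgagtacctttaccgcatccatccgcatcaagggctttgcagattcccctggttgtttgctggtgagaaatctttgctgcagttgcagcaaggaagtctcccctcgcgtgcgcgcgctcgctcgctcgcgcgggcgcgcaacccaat
The GC box occurred once in Glrb, 49 bases before the start, and once in Grm8, 56 bases before it, and not in Gria4. It was present in 32.7% of 32851 promoters of the same length and in 19 of 38 receptor gene promoters, since a gene can have several starts. Grm8 had 3 listed starts, and the other pair held no GC box. None of the promoters of the called genes held the letters TAATCC (a site of the photoreceptor factors OTX2 and CRX), TATAAA, TGACGTCA or CACGTG. Of all promoters 6.25%, 12.4%, 1.55% and 6.02% held these letters, in the same order. These matches describe letters in the window and say nothing of binding.

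**Figure D3:**
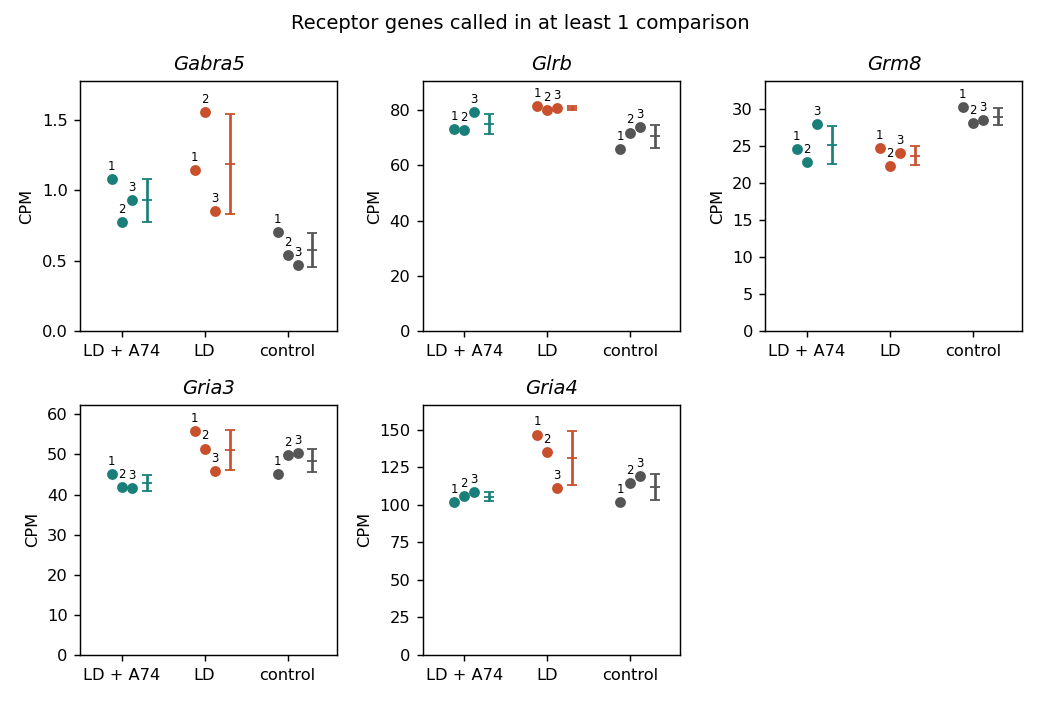
CPM of 5 receptor genes called in at least 1 comparison, with numbered points for the replicates of light damage with A74 (LD + A74), light damage (LD) and control, and bars for the mean and SD of 3 libraries, on axes that start at 0. Light damage lies above control for Gabra5 and Glrb and below it for Grm8, and in Gria3 and Gria4 light damage replicate 3 lies nearest to the A74 libraries.

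The other 43 tested genes were not called by edgeR. Over all 47 receptor genes, called ones included, the 95% interval of the log2 fold change lay within 0.5 of 0 (1.41-fold) for 39, or 83.0%, and for 51.7% of all genes. It lay within 0.25 of 0 (1.19-fold) for 11 receptor genes, or 23.4%, and for 16.6% of all genes. The called changes of Glrb and Grm8 were themselves smaller than 0.5, so changes of that size are not bounded for most genes. Of the AMPA receptor genes, Gria2, whose subunit makes the channel impermeable to calcium, had 198, 169 and 149 CPM in light damage, against 157, 184 and 209 CPM in control. The groups overlapped, with a log2 fold change of -0.09 (95% interval -0.35 to 0.17). Grik1 had 130.4, 125 and 124 CPM in light damage, against 121, 122 and 131 CPM in control. Here too the groups overlapped, and the log2 fold change was 0.02 (95% interval -0.10 to 0.14).

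Grin1 had 49.1, 46.4 and 43.7 CPM in light damage, against 40.6, 43.8 and 48.3 CPM in control, and its log2 fold change was 0.07 (95% interval -0.09 to 0.23). Grid1, the best counted delta receptor gene, had 21.2, 21.1 and 21.3 CPM in light damage, against 17.9, 19.9 and 22.1 CPM in control (log2 fold change 0.09, 95% interval -0.13 to 0.30). Both genes overlapped between the groups, and the light damage libraries of Grid1 were nearly identical. Grm5, a group I receptor that acts on postsynaptic calcium stores, had 38.3, 31.4 and 33.7 CPM in light damage, against 29.3, 35.9 and 37.0 CPM in control, with a log2 fold change of 0.01 (95% interval -0.28 to 0.31). Grm4, another presynaptic receptor of group III, had 12.4, 11.2 and 8.40 CPM in light damage, against 8.41, 7.30 and 7.82 CPM in control. Replicate 3 of light damage was no higher than control replicate 1, and the log2 fold change of 0.45 just missed the threshold (edgeR adjusted p = 0.0514), which it passed with replicate number as a block (0.44, adjusted p = 0.0410).

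Among the rho subunit genes of GABA-A receptors, Gabrr1 had 82.3, 88.5 and 79.7 CPM in light damage, against 86.8, 91.5 and 86.4 CPM in control (log2 fold change -0.08, 95% interval -0.21 to 0.05). The groups overlapped. Gabbr1 had 203, 190.0 and 205 CPM in light damage, against 187, 193 and 204 CPM in control, which overlapped (log2 fold change 0.03, 95% interval -0.09 to 0.15). Of the glycine receptor alpha genes, Glra1 and Glra4 had the largest negative log2 fold changes, -0.60 and -0.50, on 26 to 82 and 31 to 54 counts per library. Neither was called (edgeR adjusted p = 0.0971 and 0.137), although no light damage library reached the lowest control library.

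**Figure D4:**
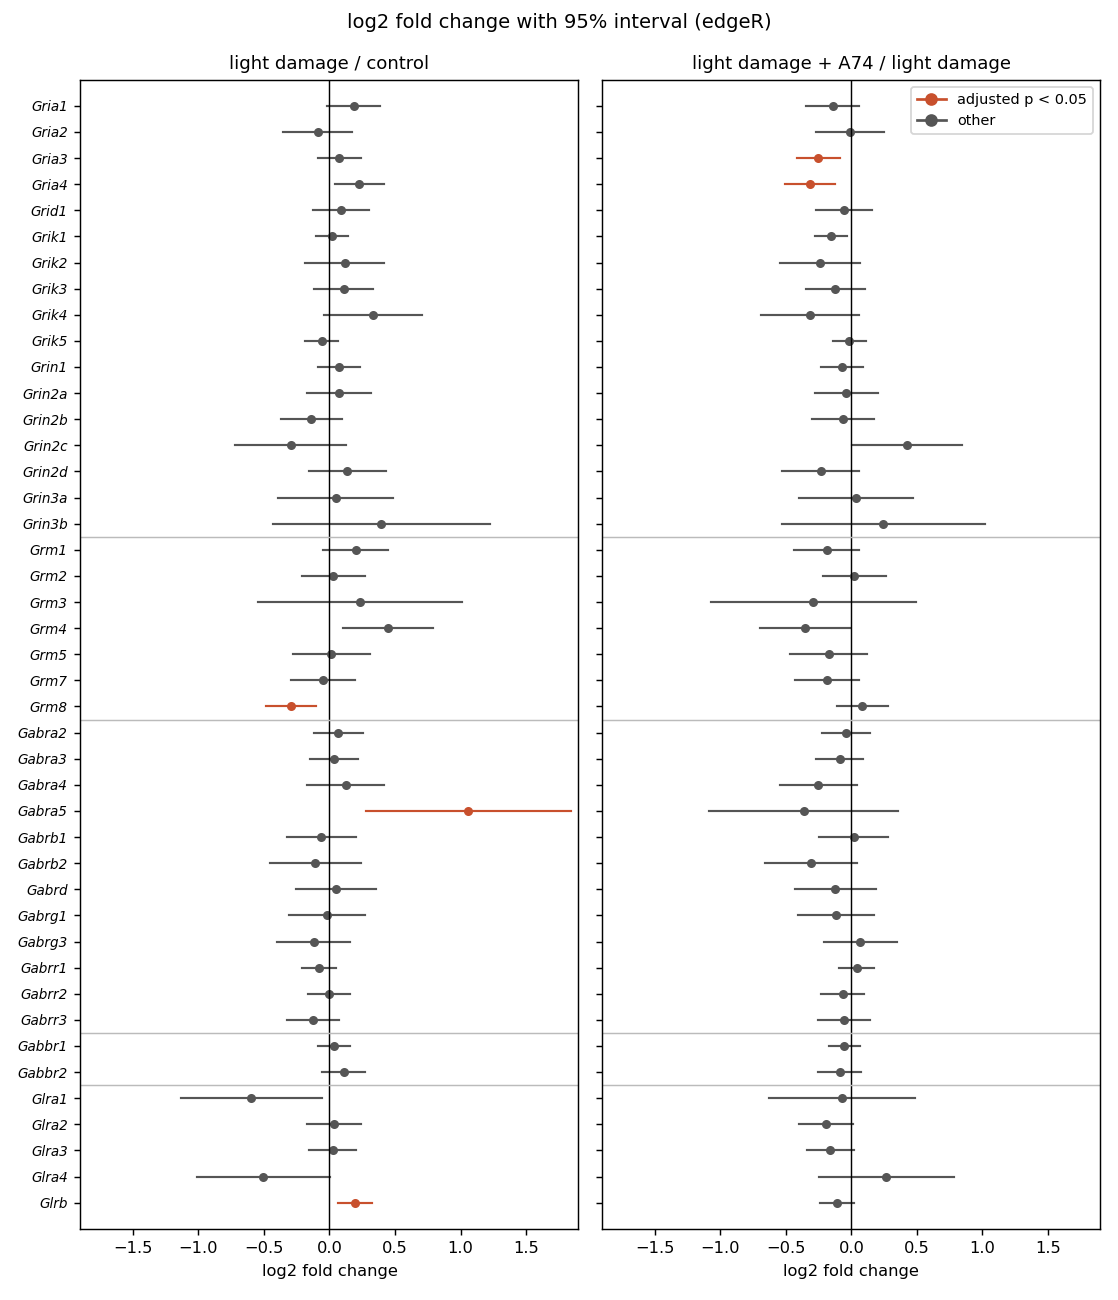
Log2 fold change of 43 receptor genes, each with its 95% interval from edgeR, for light damage over control on the left and light damage with A74 over light damage on the right, with genes called at an adjusted p under 0.05 in orange. On the left Gabra5 and Glrb lie to the right of 0 and Grm8 to the left, and on the right most points lie to the left of 0, with Gria3 and Gria4 called, while on the inner neuron marker scale the median of the 47 tested receptor genes is 0.03 and that of all genes 0.14.

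These counts changed when single libraries were left out, and so did the share of all genes called. Such fits also hold fewer libraries, and the part of that in the counts was not tested. Of the 3 light damage libraries, replicate 3 was the lowest for 28 of 47 receptor genes and replicate 1 the highest for 32. Over all genes these libraries were lowest and highest for 38.2% and 34.6%. The other groups were uneven too. Control replicate 1 was the lowest of its group for 30 receptor genes and control replicate 3 the highest for 25, beside 30% and 35% of all genes. A74 replicate 1 was the highest of its group for 26, beside 36.3% of all genes. The median of the receptor genes lay 0.17 and 0.05 above the control mean in light damage replicates 1 and 2, and at -0.02 in replicate 3. Without replicate 3, 8 receptor genes were called, 7 higher (Gabra5, Glrb, Gria1, Gria4 and Grm4 among them) and Grm8 lower, beside 31.2% of all genes. Gria1 then had a log2 fold change of 0.31 and Gria4 of 0.34 (edgeR adjusted p = 0.00194 and 0.000788). Without control replicate 1 or light damage replicate 2 the count was 0 receptor genes, with 6 and 5 at an unadjusted p under 0.05, beside 17.4% and 16.5% of all genes called. Without light damage replicate 1 it was Grm8 alone, beside 18.2% of all genes. Without control replicate 2 (Grm8 among them) or control replicate 3 (Glrb among them) it was 2, beside 20.7% and 19.4% of all genes. DESeq2 called 3 in all 9 libraries, Glrb and Grm8 among them, beside 23.4% of all genes.

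Light damage and control each held 2 libraries with Y-linked counts and 1 without. Among libraries with such counts, 2 against 2, edgeR called 9 receptor genes, beside 4782 of all 17272 genes, with a receptor median log2 fold change of 0.11, and rod markers had a median of -0.69. Among libraries without them, 1 against 1, the log2 fold change of Gria2 was -0.49, with medians of -0.11 over the receptor genes and -0.20 over rod markers. These 2 libraries were not matched, as Xist had 22253 counts in control replicate 3 and 1 in light damage replicate 3. The difference between these light effects, present minus absent, had a median of 0.19 over the receptor genes and was 0.60 for Gria2. It rests on 1 library of each group without Y-linked counts, so no call is read from it. Within light damage and control the same split separated libraries high and low in genes of anterior tissue, so the 2 cannot be told apart here, and the part of either in these values was not tested.

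**Figure D5:**
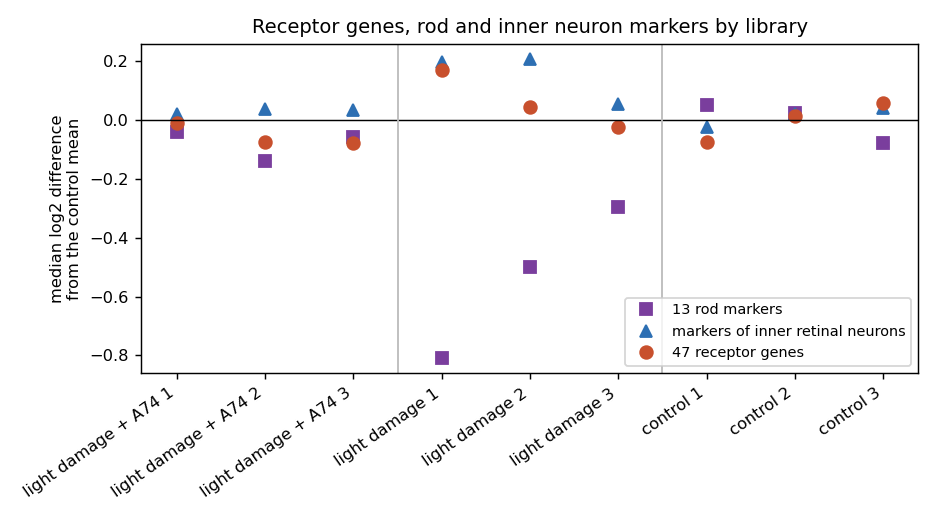
Median log2 difference from the control mean in each library, over 13 rod markers, over 47 markers of inner retinal neurons (bipolar, horizontal, amacrine and ganglion cells) and over the 47 receptor genes, with libraries of light damage with A74, light damage and control from left to right. The receptor median is highest in light damage replicate 1, at 0.17, where the rod median is lowest, at -0.81.

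The 13 rod markers summed to 39453 to 57471 CPM in light damage and 67211 to 73410 CPM in control, and 10 of 13 fell. Of the markers of cells that carry these receptors, 3 of 10 rose for ON bipolar cells, 2 of 8 for other bipolar cells, 3 of 12 for amacrine cells, 1 of 5 for horizontal cells and 8 of 12 for ganglion cells, and none fell, beside 13% of all genes higher and 12.8% lower. When libraries were scaled on the 47 inner neuron markers in place of TMM, the median of all genes moved to -0.15 and that of the receptor genes to -0.12. The receptor calls were then 0 higher and 8 lower (Glra1, Glra4, Grik5, Grm8, Gabrr1, Gabrr3, Grin2b and Gria2), beside 30.8% of all genes called. On that scale the log2 fold change was 0.04 for Glrb and -0.45 for Grm8 (edgeR adjusted p = 0.766 and 0.00214). The fall of Grm8 was called under both scalings, and the rises of Glrb and Gabra5 (0.89, edgeR adjusted p = 0.0804) were not called on the marker scale. That scaling lowers log2 fold changes of genes at large by a similar amount, so falls grow and rises shrink. For that reason these calls do not set Grm8 apart from Glrb and Gabra5.

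Genes whose products work beside the receptors were counted list by list, beside 25.8% of all genes called (13% higher and 12.8% lower). Of 14 genes for auxiliary subunits of AMPA and kainate receptors, 2 rose and none fell. These were Cacng4, which encodes a transmembrane regulator that slows AMPA channel closing (log2 fold change 0.40, SE 0.07), and Shisa9, which encodes an AMPA receptor-binding protein (0.32, SE 0.09). Of 20 glutamatergic scaffold genes, 3 rose and 4 fell. Dlg4, which encodes PSD-95 and is also abundant in photoreceptor terminals, fell by 0.55 on the log2 scale (SE 0.07), Dlg1, a related scaffold, fell by 0.28 (SE 0.05), and Dlgap1, which links PSD-95 to deeper scaffolds, rose by 0.24 (SE 0.06). Of 14 inhibitory scaffold genes, 2 rose and 1 fell. Gabarap, whose product binds GABA-A receptors and also serves autophagy, rose by 0.61 (SE 0.07), Insyn1, an inhibitory synapse protein gene, rose by 0.25 (SE 0.08), and Mdga1, which restrains neuroligin, fell by 0.35 (SE 0.08). The edgeR adjusted p of these 8 genes ran from 2.53e-05 to 0.0289.

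Of 11 genes for transport and metabolism of glutamate, 3 rose and 4 fell, with a median log2 fold change of 0.01. Slc1a3, the glutamate transporter of Müller glia, rose by 0.64 on the log2 scale (SE 0.08), Glud1, glutamate dehydrogenase, rose by 0.26 (SE 0.06), and Slc1a7, a transporter of photoreceptor and bipolar terminals, fell by 0.43 (SE 0.06). Of 11 genes for GABA and glycine handling, with a median of 0.06, 2 rose and none fell, namely Slc6a11, a GABA transporter, by 0.23 (SE 0.06), and Abat, GABA transaminase, by 0.23 (SE 0.06). All 5 were called by edgeR (adjusted p from 9.50e-05 to 0.0147), beside the 25.8% of all genes. Slc1a3 also counts among the Müller glia markers, of which 8 of 10 rose with a median log2 fold change of 0.52. The part of the glial change in these values was not tested. Other genes of these transport and metabolism lists also count among the markers of Müller glia, amacrine or ganglion cells. These lists and the marker lists are therefore not independent.

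The second comparison set light damage with A74 against light damage alone. Of 47 receptor genes 3 fell, Gria4 and Gria3 among them, and none rose, which is 6.38%, beside 18.3% of all genes in either direction (9.07% higher and 9.19% lower). The median log2 fold change was -0.12 over the receptor genes and 0.00 over all genes, and 38 of 47 receptor genes had a negative one, beside 8647 of 17272, and the medians were 0.03 and 0.14 on the inner neuron marker scale. At an unadjusted p under 0.05 there were 8 receptor genes, beside 32.3% of all genes. In 8 receptor genes every A74 library was below every light damage library (Glrb, Gria3, Gria4, Grik1 and Grin2d among them) and in none above, beside 35.2% of all genes in either direction, 17.7% below and 17.5% above. This comparison shares the light damage libraries with the first one, so the values of both for 1 gene are not independent.

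Gria4 encodes an AMPA receptor subunit with fast gating. It had 102, 106 and 108 CPM with A74, against 147, 135 and 111 CPM in light damage alone. The A74 libraries were close together and all lower, but light damage replicate 3 was only just above them. The log2 fold change was -0.31 (SE 0.09, 95% interval -0.50 to -0.13, edgeR adjusted p = 0.0253), from means of 106 ± 3.29 CPM with A74 and 131 ± 18.04 CPM in light damage (SD, n = 3 each). Without light damage replicate 3 it was -0.42 (edgeR adjusted p = 0.000151). The call was lost without any 1 of light damage replicates 1 and 2 and A74 replicates 1, 2 and 3 (edgeR adjusted p = 0.0825, 0.0873, 0.0884, 0.0711 and 0.0665).

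Gria3, an X-linked AMPA receptor gene, had 45.1, 42.0 and 41.6 CPM with A74, against 55.8, 51.5 and 46.0 CPM in light damage. No A74 library reached the lowest light damage library, which was again replicate 3. The log2 fold change was -0.25 (SE 0.08, 95% interval -0.42 to -0.09, edgeR adjusted p = 0.0326), and without light damage replicate 3 it was -0.32 (edgeR adjusted p = 0.00401). Leaving out light damage replicate 1 or 2, or A74 replicate 2 or 3, ended the call (edgeR adjusted p = 0.157, 0.0922, 0.110 and 0.104). The other X-linked receptor genes, Gabra3, Glra2 and Glra4, were not called in any of the 3 comparisons.

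No other ionotropic glutamate receptor gene was called. Gria2 had 172, 169.8 and 171 CPM with A74, against 198, 169 and 149 CPM in light damage, with a log2 fold change of -0.01 (95% interval -0.27 to 0.25). The A74 libraries were alike and sat inside the range of light damage. Grik1 had 109, 112 and 121 CPM with A74, against 130.4, 125 and 124 CPM in light damage. The groups did not overlap, but the log2 fold change of -0.15 (95% interval -0.27 to -0.03) was not called (edgeR adjusted p = 0.0766). Grid1 had 21.2, 18.3 and 21.8 CPM with A74, against 21.2, 21.1 and 21.3 CPM in light damage, and Grin1 had 42.3, 44.6 and 45.8 CPM with A74, against 49.1, 46.4 and 43.7 CPM in light damage. Both overlapped, at log2 fold changes of -0.06 and -0.07. Grin2c, a subunit of NMDA receptors, had the largest positive log2 fold change, 0.42 (edgeR adjusted p = 0.150), and 56 to 103 counts per library. Grm5 had 37.4, 27.4 and 26.9 CPM with A74, against 38.3, 31.4 and 33.7 CPM in light damage (log2 fold change -0.17, 95% interval -0.47 to 0.12).

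Glrb had 73.0, 72.7 and 79.4 CPM with A74, against 81.5, 80.2 and 80.6 CPM in light damage (log2 fold change -0.11, edgeR adjusted p = 0.248). Its groups did not overlap although the test did not call it. Gabrr1 had 91.1, 81.1 and 85.4 CPM with A74, against 82.3, 88.5 and 79.7 CPM in light damage, and Gabbr1 had 197, 195 and 185 CPM with A74, against 203, 190.0 and 205 CPM in light damage. These overlapped, at log2 fold changes of 0.04 and -0.05. Over all 47 genes the 95% interval lay within 0.5 of 0 for 34, or 72.3%, beside 54.6% of all genes. Within 0.25 of 0 it lay for 7, or 14.9%, beside 18.7% of all genes.

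Again the count changed when single libraries were left out, as did the share of all genes called. The part of having fewer libraries in these fits was not tested. Without light damage replicate 3, 9 receptor genes fell (Gabra4, Glra3, Gria1, Gria3, Gria4, Grik2 and Grm4 among them), beside 25.8% of all genes called in that fit. The count was 0 by edgeR without light damage replicate 1, light damage replicate 2, A74 replicate 2 or A74 replicate 3, with 4, 7, 3 and 6 at an unadjusted p under 0.05 and with 10% to 10.4% of all genes called. Without A74 replicate 1 it was 4 (Gabrb2, Gria3 and Grm5 among them), beside 15.5% of all genes, and without any 1 control library it was 2 (Gria3 and Gria4), beside 15.6% to 18%. DESeq2 on all libraries called the same 2 genes, beside 16.8% of all genes.

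The A74 libraries had no Y-linked counts and 2 of the 3 light damage libraries did. Within libraries without Y-linked counts, 3 against 1, the receptor median log2 fold change was 0.00 and that of rod markers 0.17. Gria4 was -0.08 and Gria3 -0.10. That set rests on light damage replicate 3 alone, so only effect sizes are given, as for the anterior sets, which also hold a lone library. Light damage replicate 3 had 1 Xist count and the A74 libraries 17227 to 18172, so libraries without Y-linked counts were not matched. The term for Y-linked counts groups them in the same way. With presence of Y-linked counts as a term, Gria4 had a log2 fold change of -0.25 and Gria3 of -0.20, and 0 receptor genes were called (edgeR adjusted p = 0.224 and 0.233; 4 genes at an unadjusted p under 0.05), while the calls over all genes dropped to 745. Among libraries high in anterior tissue genes, 1 against 2, Gria4 was -0.47 and Gria3 -0.25, with a receptor median of -0.12. Among those low in them, 2 against 1, Gria4 was -0.05 and Gria3 -0.14, with a receptor median of -0.04, and Gabrb2 was -0.62. With that split as a term 0 were called (6 at an unadjusted p under 0.05), beside 15.3% of all genes, and the edgeR adjusted p was 0.0520 for Gria4 and 0.0581 for Gria3. The part of sex-linked or anterior RNA in these calls was not tested beyond these fits.

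Of the 13 rod markers 11 rose, with sums of 65106 to 68480 CPM with A74 and 39453 to 57471 CPM in light damage. Scaling on the inner neuron markers moved the median of all genes to 0.14 and that of the receptor genes to 0.03. On that scale Gria4 had a log2 fold change of -0.16 and Gria3 of -0.10 (edgeR adjusted p = 0.133 and 0.361), 0 receptor genes were lower and Grin2c was higher (0.57, edgeR adjusted p = 0.0407). Of the markers for ON bipolar cells 5 of 10 fell, and 2 of 8 fell and 1 rose for other bipolar cells, beside 0 of 12 for amacrine, 1 of 5 for horizontal and 1 of 12 for ganglion cells, and beside 9.07% of all genes higher and 9.19% lower.

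Partner genes were again counted beside 18.3% of all genes called (9.07% higher and 9.19% lower). Of 14 auxiliary subunit genes 3 fell with A74 and none rose, including Cacng4 (log2 fold change -0.33, SE 0.07) and Shisa9 (-0.41, SE 0.09). Glutamatergic scaffold genes gave 2 higher and 2 lower of 20, with Dlg4 at 0.38 (SE 0.07) and Dlgap1 at -0.23 (SE 0.06). Of 14 inhibitory scaffold genes Gabarap alone fell (-0.48, SE 0.07). Of 11 glutamate handling genes 1 rose, Slc1a7 (0.22, SE 0.06), and 3 fell, including Slc1a3 (-0.69, SE 0.08) and Glud1 (-0.17, SE 0.06). Of 11 GABA and glycine handling genes 3 fell, including Slc6a11 (-0.21, SE 0.06) and Abat (-0.24, SE 0.06). The edgeR adjusted p of these named genes ran from 0.000114 to 0.0388. Of 10 Müller glia markers 8 fell and 1 rose, and the part of the glial change in these values was not tested.

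Light damage with A74 was last set against control, a comparison that shares libraries with both others. No receptor gene was called by edgeR, beside 0.892% of all genes (154 of 17272, with 0.591% higher and 0.301% lower), and DESeq2 also called 0 (3 at an unadjusted p under 0.05). At an unadjusted p under 0.05 edgeR gave 5 of 47, all lower with A74, beside 15.9% of all genes. These were Gabrb2 (-0.42), Glra1 (-0.67), Grm8 (-0.21), Gria3 (-0.18) and Grik1 (-0.13), with adjusted p from 0.221 to 0.286. Grm8 had 24.5, 22.8 and 27.9 CPM with A74, against 30.2, 28.0 and 28.5 CPM in control. Its groups did not overlap, by a narrow margin between A74 replicate 3 and control replicate 2. Groups did not overlap in 6 receptor genes, Gabra5 higher and 5 lower (Glra1, Gria3, Grm7 and Grm8 among them), beside 22.8% of all genes.

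Gabrb2, a beta subunit of GABA-A receptors, had 22.1, 16.4 and 14.3 CPM with A74, against 25.1, 23.9 and 21.6 CPM in control. A74 replicate 1 was just above the lowest control library and the other pair were below all 3. Like Grm4, this gene was picked for its values by library after they were seen. It was called without A74 replicate 1, the only receptor gene in any fit that left out 1 library. Glrb had a log2 fold change of 0.09 (95% interval -0.04 to 0.22). Gria4 had 102, 106 and 108 CPM with A74, against 102, 114 and 119 CPM in control, which overlapped. Gabra5 had 1.08, 0.778 and 0.930 CPM with A74, against 0.706, 0.543 and 0.472 CPM in control, and its log2 fold change of 0.69 had a wide interval of -0.12 to 1.51. The median over the receptor genes was -0.06, and the 95% interval lay within 0.5 of 0 for 39 of 47, beside 61.1% of all genes. Within 0.25 of 0 it lay for 15, or 31.9%, beside 25.4% of all genes. None of the partner genes was called by edgeR.

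Subunit makeup within a family was also compared, as each gene's share of its family's summed CPM per kb. Gria4 made up 34.2% ± 0.98 with A74, 37.6% ± 0.26 in light damage and 34.3% ± 0.48 in control (SD, n = 3 each). Gria2 made up 33.4% ± 0.23, 29.6% ± 1.08 and 33.6% ± 1.84 of the same family in that order. For Gria4 the 3 light damage libraries were above all others, and the light damage share of Gria2 was below those of both other groups. In the glycine receptor family Glrb made up 59.1% ± 3.10 with A74, 58.6% ± 1.48 in light damage and 54.1% ± 0.50 in control, and Glra1 3.21% ± 1.32, 3.13% ± 0.53 and 4.98% ± 0.23. These shares, picked from those of all families, are descriptions. Shares of a family are parts of the same total, so a higher share of Gria4 lowers that of Gria2. The CPM of Gria2 in light damage overlapped with both other groups. With 3 libraries against 3 an exact two-sided permutation test cannot go below p = 0.1, so these shares are given without one.

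Some of these genes lie side by side in the genome. By RefSeq gene order Gabrg3 and Gabra5 are neighbours on chromosome 7, and Gria2 and Glrb on chromosome 3. In light damage against control Glrb rose beside Gria2, whose log2 fold change was -0.09, and Gabra5 rose beside Gabrg3, whose log2 fold change was -0.12 (95% interval -0.40 to 0.16).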

How the data were processed

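RNA from retinas was sequenced as 9 libraries, 3 per group. The authors deposited whole-number counts per gene, which were used as deposited. Per the submitters' processing notes, the tools and build were Bowtie2, RSEM 1.3.1, DESeq2 1.4.5 and GRCm39, with no role stated. Annotation, strand setting and any rounding of RSEM estimates were not given. Genes with low counts were removed with filterByExpr of edgeR 4.0.16 (minimum count 10), and 1 robust quasi-likelihood model with TMM scaling was fitted in R 4.3.3 to all libraries, with no covariates. P-values were adjusted over all genes tested by Benjamini-Hochberg. CPM per kb used exon lengths of GENCODE M21, a build other than that of the counts. DESeq2 1.42.0 and other scalings, filters, terms and left-out libraries made up 18 alternatives. Values by library are given for called genes and for the gene with most counts in each family. Some receptor genes enter the counts and medians but are not reported by name here or drawn gene by gene. Receptor genes and partner and marker lists were chosen with earlier results of these data known. The main fit used no pairs, and the replicate numbers of the titles entered only as a block in 1 of the alternatives. Deviations of same-numbered light damage and control libraries correlated at 0.12, 0.25 and 0.31 across genes. In both groups replicates 1 and 2 had Y-linked counts and high anterior tissue genes, and replicate 3 had no Y-linked counts and low anterior tissue genes. The part of that split in these correlations was not tested. Light damage replicate 1 correlated as much with control replicate 2 (0.13), and the library names carry other numbers, so any pairing by number would be a reading of the data.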

Additional observations from a re-analysis of the deposited data

How the results depend on the processing

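With replicate number as a block, edgeR called 4 receptor genes in light damage against control (Grm4 joined and Gabra5, adjusted p = 0.0537, left), 1 in A74 against light damage (Gria3) and 0 in A74 against control, beside 26.6%, 19.5% and 0.787% of all genes. The A74 libraries did not pair by number (correlations with light damage of 0.13, -0.07 and 0.13, and with control of 0.07, -0.09 and 0.14). In light damage against control the block changed no other receptor gene's call. Scaled on inner neuron markers, 8, 1 and 0 receptor genes were called in the 3 comparisons, beside 30.8%, 26.8% and 0.324% of all genes (56 in the last). With Y-linked counts as a term, A74 against light damage gave 0 receptor genes and 745 of all genes, and A74 against control 96 of all genes. With anterior tissue genes as a term, A74 against light damage gave 0 receptor genes, beside 15.3% of all genes. A74 against control gave 322 of all genes with DESeq2, 551 with only those groups in the fit, and 718 without a count filter, which also called 1 receptor gene (Gabrb2). Leaving out light damage replicate 3 and A74 replicate 1 together gave 9 receptor genes in light damage against control (33.1% of all genes), 11 in A74 against light damage (25.8%), and 2 in A74 against control (5.44%, or 940 genes). In each comparison these were the most receptor calls of any alternative. Leaving out single libraries gave 0 to 8 receptor genes and 2842 to 5395 of all genes in light damage against control, 0 to 9 and 1731 to 4448 in A74 against light damage, and 0 to 1 and 21 to 426 in A74 against control.

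Signs were followed for the named called genes and for the named gene with most counts in each family. Among these, log2 fold changes that changed sign were of genes not called in that comparison, and the cause was not tested. On the inner marker scale, which moved the median of all genes to -0.15 and 0.14, light damage against control gave Gabbr1 -0.13, Grid1 -0.073, Grik1 -0.14, Grin1 -0.091 and Grm5 -0.15. A74 against light damage gave Gabbr1 0.0899, Glrb 0.0381, Gria2 0.14, Grid1 0.088 and Grin1 0.077, and A74 against control gave Grin1 -0.014. In A74 against control the Y-linked term gave Gabrr1 0.0093, Grid1 -0.046 and Grin1 -0.022, the anterior term Grin1 -0.018, DESeq2 Grin1 -0.0016, and DESeq2 size factors Grin1 -0.0014. With light damage replicate 3 and A74 replicate 1 both out, Gabrr1 was -0.037 in A74 against light damage and Gria2 0.0043 in light damage against control. Leaving out single libraries, the ranges of these genes that crossed 0 in A74 against control were -0.048 to 0.016 for Gabbr1, -0.084 to 0.0066 for Gabrr1, -0.20 to 0.0057 for Gria2, -0.041 to 0.11 for Grid1 and -0.057 to 0.067 for Grin1. In A74 against light damage they were -0.0051 to 0.082 for Gabrr1, -0.10 to 0.10 for Gria2 and -0.11 to 0.016 for Grid1, and in light damage against control -0.19 to 0.016 for Gria2, -0.00047 to 0.055 for Grik1 and -0.082 to 0.087 for Grm5. Depth limited Gabra5, at 7 to 30 counts per library.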
